A study of Mus musculus with 4 samples.

Results

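Fibroblast growth factor 2 (FGF2) was added to mouse feeder cells, and the transcripts of 5 genes that stand closest to the growth factor at the cell surface, or share its family name, were followed. They are the FGF receptor Fgfr1, the heparan sulfate proteoglycans Gpc1, Sdc1 and Sdc2, and Fgf13. A probe was assigned to one of them when the number in its identifier, after a fixed prefix and 1 or 2 zeros, was the NCBI mouse gene number of that gene. This gave 7 probes for 5 genes, among 46116 probes on the array and 8131 genes that could be named in this way. Of the 7 probes, 6 passed the filter on dim signals, so that all 5 genes were tested, among 11763 probes and 3484 named genes. The rule that assigned probes to the 5 genes used no signal.

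The cells were CF1 mouse embryonic fibroblasts, mitotically inactivated with mitomycin C, which serve as a feeder layer for human embryonic stem cells. All of them were grown in serum, inactivated, replated on gelatine, moved the next day to a serum replacement medium for human embryonic stem cells, and harvested 24 h later. The FGF2 arrays held cells given 4, 13 or 40 ng/ml FGF2 in that medium, with 1 array at each dose, and the control arrays held 3 biological replicates without added FGF2. Total RNA was amplified, and the Cy3-labelled product of each RNA was read on an Illumina bead array in 1 colour.

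FGF2 signals through tyrosine kinase receptors such as FGFR1, and its binding to them is stabilised by heparan sulfate, a sulfated sugar chain carried by cell-surface and matrix proteoglycans. Glypicans such as GPC1 are held in the membrane by a lipid anchor, whereas syndecans such as SDC1 and SDC2 span the membrane and bind scaffold proteins with their cytoplasmic tails. FGF13 belongs to the FGF homologous factors, which resemble FGFs in sequence but stay inside the cell, do not act as secreted ligands, and bind voltage-gated sodium channels.

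With FGF2, the glypican Gpc1 was higher by 1.77-fold and the syndecan Sdc2 lower by 1.47-fold, and both passed the test. Fgf13 was below the detection limit on all 3 FGF2 arrays, met the filter on dim signals only through the 3 controls, and also passed. The second syndecan, Sdc1, had a small negative difference that did not pass, and Fgfr1, which lay at the detection limit, differed by 0.00065 on the log2 scale. Thus 3 of the 5 genes passed at an adjusted p of 0.05 in limma, against a background of 36.8% of all 11763 probes tested and 37.7% of the 3484 named genes. A share of this kind in 5 genes cannot be set apart from that background. By absolute log2 change, 6.01% of the tested probes changed more than Gpc1, 10.9% more than Sdc2, 41.4% more than Sdc1, 55.2% more than Fgf13 and 99.4% more than Fgfr1.

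The 6 arrays had similar brightness, with a median signal of 102.5 to 113.6 over all probes, and 11195 to 11698 probes were detected on each. The median of the negative controls lay between 94.8 and 104.2 units of signal. A probe was called detected at a detection score of at least 0.99, which corresponded to 143 to 160 units. Control arrays correlated at 0.995 to 0.997 with each other in log2 signal over the tested probes, and FGF2 arrays at 0.945 to 0.972 with control arrays. Of 17 fibroblast marker genes 10 had a probe, all 10 were detected on every control array, and with FGF2 8 fell and 0 rose, against 18.3% of all tested probes that fell and 18.4% that rose. Of those that fell, Postn was undetected on all 3 FGF2 arrays and met the filter on dim signals only through the controls. It was at least 1.08-fold lower. The summed linear signal of the 10 markers after normalisation was 40374 to 49277 on FGF2 arrays and 72342 to 80596 on control arrays. In RNA from whole cultures, fewer cells of a kind and less RNA per cell cannot be told apart.

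Markers of other cell types were mostly undetected, but some of them moved with FGF2, where 36.8% of all tested probes passed. Of 14 blood cell markers 9 had a probe, 8 of these were undetected on all 6 arrays, and the remaining one, Lyz2, was 1.31-fold lower (adjusted p = 0.00147). Of 12 epithelial markers 5 had a probe and 3 of these were undetected, and Krt18 was at least 1.12-fold higher (adjusted p = 0.0112). Of 10 endothelial markers 3 had a probe and 2 of these were undetected, and Egfl7 was at least 1.03-fold higher (adjusted p = 0.0347). Krt18 and Egfl7 were undetected on all 3 controls. Of 14 neural markers 12 had a probe and 8 of these were undetected, and of the 4 tested 2 rose, Gap43 by 3.19-fold (adjusted p = 0.00242) and Nes by 1.83-fold (adjusted p = 0.00808), while Ncam1 fell. Nes was above the detection limit on only 2 of the 3 controls. Its fitted log2 difference was 0.87, and it ranged from 0.75 to 2.56 over the alternatives, so its size is uncertain. The only skeletal muscle marker of 10 with a probe, Chrna1, was undetected on all 3 controls and at least 3.62-fold higher with FGF2 (adjusted p = 0.0118). The summed linear signals on FGF2 and on control arrays were 1345 to 1357 and 1410 to 1427 for the blood cell list, 749 to 757 and 729 to 734 for the epithelial, 450.4 to 455 and 437 to 448 for the endothelial, and 2597 to 3219 and 2032 to 2054 for the neural list. Each sum takes in every probe of its list, the undetected ones included, so it holds background and does not measure marker expression alone. The part of these markers in the differences of the 5 genes was not tested.

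**Figure D1:**
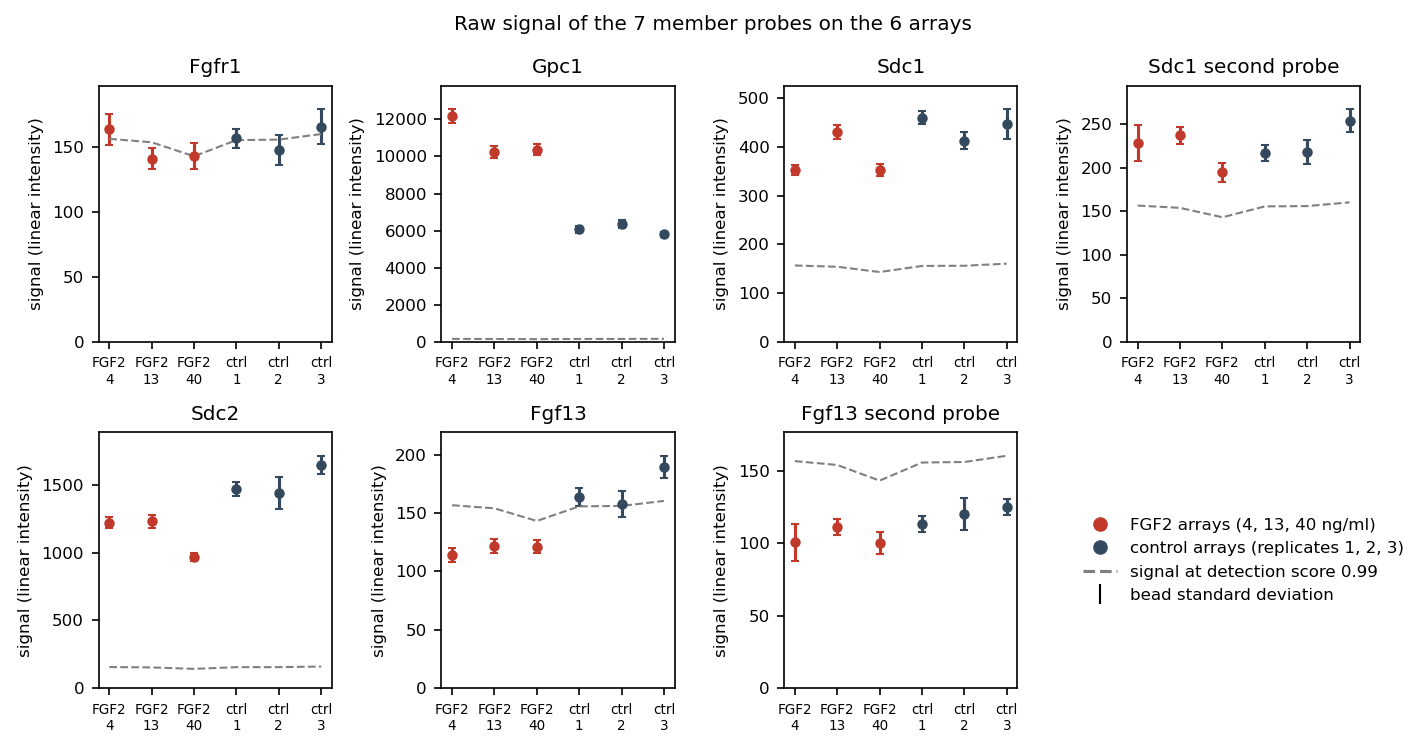
Raw linear signal (y axis, from 0) of the 7 probes on each array (x axis), with FGF2 arrays in red, control arrays in blue, the bead standard deviation of each array as bars and the signal at a detection score of 0.99 as a dashed line. Gpc1 lies higher and Sdc2 lower on every FGF2 array than on any control, Fgfr1 lies on the dashed line in both groups, the brighter Fgf13 probe lies under it only on the FGF2 arrays, and the second Fgf13 probe lies under it on all 6.

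Fgfr1 encodes the main FGF receptor of mesenchymal cells. Its probe had a raw signal of 164.0, 141.4 and 143.5 units at 4, 13 and 40 ng/ml FGF2, against 157.1, 148.3 and 166.0 units in control replicates 1, 2 and 3. The probe counted as detected at 4 and 40 ng/ml and in control replicates 1 and 3, and it fell short of the limit at 13 ng/ml, with a score of 0.969, and in control replicate 2, with a score of 0.981. The groups overlapped.

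Above the median of the negative controls, the Fgfr1 probe retained only 62.7, 40.2 and 48.7 units with FGF2 and 52.9, 47.3 and 62.4 units in controls. In log2 signal after background correction Fgfr1 averaged 7.26 ± 0.03 with FGF2 and 7.26 ± 0.0094 in controls (SD, n = 3 each). The difference was 0.00065 with a standard error of 0.025 and an adjusted p of 0.988. The 95% interval of this difference ran from -0.06 to 0.06. It widened to -0.33 to 0.31 when the negative controls were summarised by robust estimates, so that a change of either sign within these bounds was not detectable for this dim probe.

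Gpc1 encodes glypican 1, which carries heparan sulfate chains outside the cell. Its probe had a raw signal of 12170.8, 10247.1 and 10375.5 units at 4, 13 and 40 ng/ml FGF2, against 6079.9, 6357.5 and 5796.3 units in the control replicates. All 3 FGF2 arrays lay far above all 3 controls, and the bead standard deviation was at most 3.26% of the signal on any array.

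After normalisation Gpc1 averaged 13.34 ± 0.18 with FGF2 and 12.52 ± 0.16 in controls (log2 signal, SD, n = 3 each). The log2 difference was 0.82 with a standard error of 0.12, a 95% interval of 0.52 to 1.12 and an adjusted p of 0.00549. On the linear scale this was 1.77-fold, with an interval of 1.43-fold to 2.18-fold. Gpc1 passed under 15 of 15 alternative settings, with log2 differences of 0.72 to 0.91.

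Sdc2 encodes syndecan 2, the fibroblast-type syndecan that also carries heparan sulfate. Its probe had a raw signal of 1221.0, 1229.2 and 965.4 units at 4, 13 and 40 ng/ml FGF2, against 1468.1, 1437.9 and 1645.5 units in the control replicates. The 3 FGF2 arrays lay under all 3 controls, and the array at 40 ng/ml was the lowest.

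After normalisation Sdc2 averaged 9.66 ± 0.21 with FGF2 and 10.22 ± 0.0011 in controls (log2 signal, SD, n = 3 each). The very small control SD came after quantile normalisation of raw signals that differed between the controls. The log2 difference was -0.55 with a standard error of 0.10, a 95% interval of -0.81 to -0.29 and an adjusted p of 0.0120. Sdc2 passed under 15 of 15 alternative settings, with log2 differences of -0.65 to -0.41.

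Sdc1 encodes syndecan 1, known chiefly as the syndecan of epithelial and plasma cells. The brighter of its probes had a raw signal of 352.4, 431.0 and 352.1 units at 4, 13 and 40 ng/ml FGF2, against 459.5, 412.9 and 446.7 units in the control replicates. The array at 13 ng/ml lay within the range of the controls, and the arrays at 4 and 40 ng/ml lay under it.

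After normalisation this Sdc1 probe averaged 7.80 ± 0.06 with FGF2 and 7.95 ± 0.08 in controls (log2 signal, SD, n = 3 each). The log2 difference was -0.15 with a standard error of 0.05, a 95% interval of -0.29 to -0.02 and an adjusted p of 0.0684, which did not pass. It passed under 1 of 16 alternatives, when arrays were scaled to a common median, with a log2 difference of -0.20 and an adjusted p of 0.0488.

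A second probe of Sdc1 had a raw signal of 229.1, 237.3 and 194.9 units at 4, 13 and 40 ng/ml FGF2, against 217.2, 218.2 and 254.4 units in the control replicates. Its groups overlapped. The log2 difference was 0.00077, with a 95% interval of -0.07 to 0.07 and an adjusted p of 0.987, so the pair of Sdc1 probes did not give the same estimate.

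Fgf13 was the only FGF homologous factor of 4 with a probe, and its probe was dim. It had a raw signal of 113.9, 121.8 and 121.1 units at 4, 13 and 40 ng/ml FGF2, against 163.6, 157.9 and 189.4 units in the control replicates. All 3 controls were detected, with scores of at least 0.992, and none of the FGF2 arrays was, with scores of 0.788, 0.887 and 0.939. Above the median of the negative controls, 12.6, 20.6 and 26.3 units remained with FGF2 and 59.4, 56.9 and 85.8 units in controls.

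After normalisation Fgf13 averaged 7.19 ± 0.02 with FGF2 and 7.29 ± 0.02 in controls (log2 signal, SD, n = 3 each). The log2 difference was -0.09 with a standard error of 0.025, a 95% interval of -0.16 to -0.03 and an adjusted p of 0.0354. Since the FGF2 arrays give only an upper limit, Fgf13 was at least 1.02-fold lower with FGF2, which sets the mean of the controls against the lowest signal of a probe detected on each FGF2 array.

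The size of the Fgf13 difference depended on the background correction. It was -1.01 on the log2 scale, or 2.02-fold, with an adjusted p of 0.00077 when the negative controls were summarised robustly. It was -0.45 without any further background correction, and the bounds under these settings were at least 1.16-fold and at least 1.07-fold lower. Leaving out any one of the 6 arrays ended the call, with adjusted p of 0.0667 to 0.102 and log2 differences of -0.10 to -0.080.

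A second Fgf13 probe was undetected on all 6 arrays and was not in the fit. Its raw signal was 100.6, 111.3 and 100.3 units at 4, 13 and 40 ng/ml FGF2, against 113.3, 120.4 and 125.2 units in the control replicates. With no array above the detection limit, no difference is given for it, and in normalised log2 signal its groups overlapped.

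In normalised log2 signal, the FGF2 and control arrays did not overlap for Gpc1, Sdc2, Sdc1 and Fgf13, whereas they did for Fgfr1 and the second probes of Sdc1 and Fgf13. Among all tested probes 53% did not overlap.

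**Figure D2:**
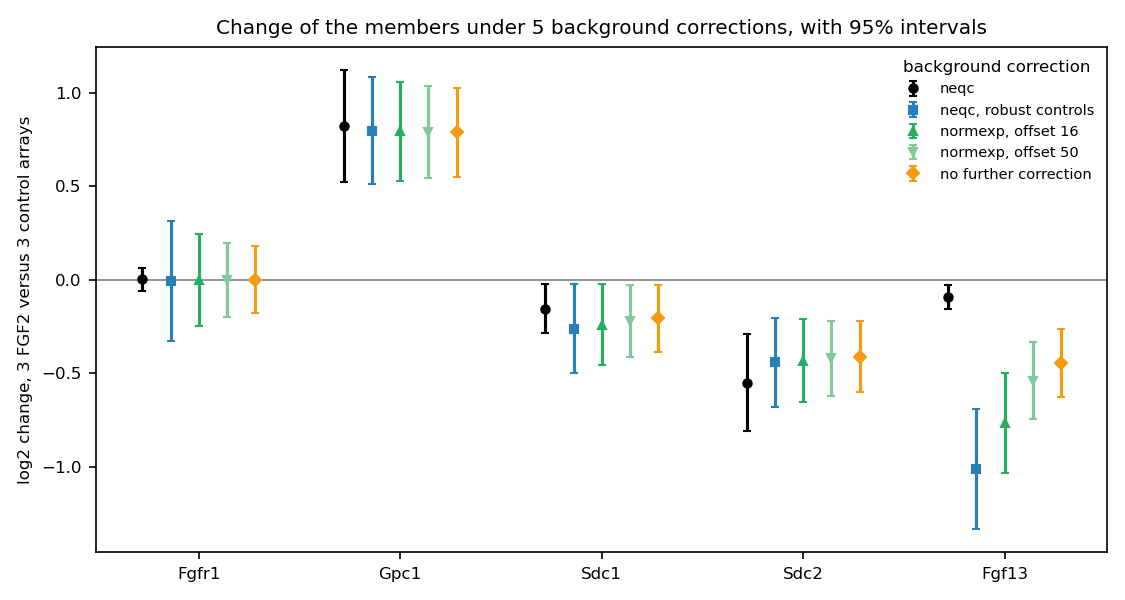
Log2 difference between 3 FGF2 and 3 control arrays (y axis) for the 5 genes under 5 background corrections, with 95% intervals as bars. Gpc1 keeps nearly the same estimate, and the interval of Fgfr1 widens around 0. The estimate for Sdc2 runs from -0.55 to -0.41, that for Sdc1 from -0.15 to -0.26 and that for Fgf13 from -0.09 to -1.01.

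Each dose was next set against the 3 controls, where the single FGF2 array is assumed to vary as the controls do. Alternatives that left out the array of another dose repeat this fit unchanged, so they add nothing to the counts of alternatives below. At this level the share of tested probes that passed was 13.8% for 4 ng/ml, 25.6% for 13 ng/ml and 24.8% for 40 ng/ml. Gpc1 and Sdc2 passed at all 3 doses, and Fgfr1, Sdc1 and Fgf13 at none.

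Gpc1 was higher by 1.02, 0.65 and 0.79 on the log2 scale at 4, 13 and 40 ng/ml, with adjusted p of 0.0274, 0.0441 and 0.0301. The lowest dose thus had the highest Gpc1 signal. Without control replicate 1 the log2 differences were 1.03, 0.67 and 0.81, but the calls ended, with adjusted p of 0.108, 0.130 and 0.102. They also ended without the filter on dim probes, with adjusted p of 0.0768, 0.134 and 0.0913. At 13 ng/ml the call also ended without control replicate 2, with an adjusted p of 0.0523.

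Sdc2 was lower in the order of the doses, with log2 differences of -0.35, -0.53 and -0.77 at 4, 13 and 40 ng/ml. No spread among FGF2 arrays enters this fit, and the control SD of Sdc2 was only 0.0011 after quantile normalisation. Its p-values at each dose therefore look firmer than 1 array allows. At 4 ng/ml the call passed under only 6 of 14 alternatives. It ended without control replicate 1 or 2, with robust or normexp background estimates, and without further background correction. It also ended with scaling to a common median and with a trended prior. At 13 and 40 ng/ml it passed under 14 of 14.

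Sdc1 differed by -0.21, -0.09 and -0.17 on the log2 scale at 4, 13 and 40 ng/ml, with adjusted p of 0.161, 0.459 and 0.186. Fgfr1 differed by 0.03, -0.03 and 0.0040, with adjusted p of at least 0.626. For Fgf13 the differences were -0.11, -0.10 and -0.07, with adjusted p of 0.167, 0.173 and 0.260, and they passed at each dose under 5 of 13 alternatives, 4 of which changed the background correction.

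**Figure D3:**
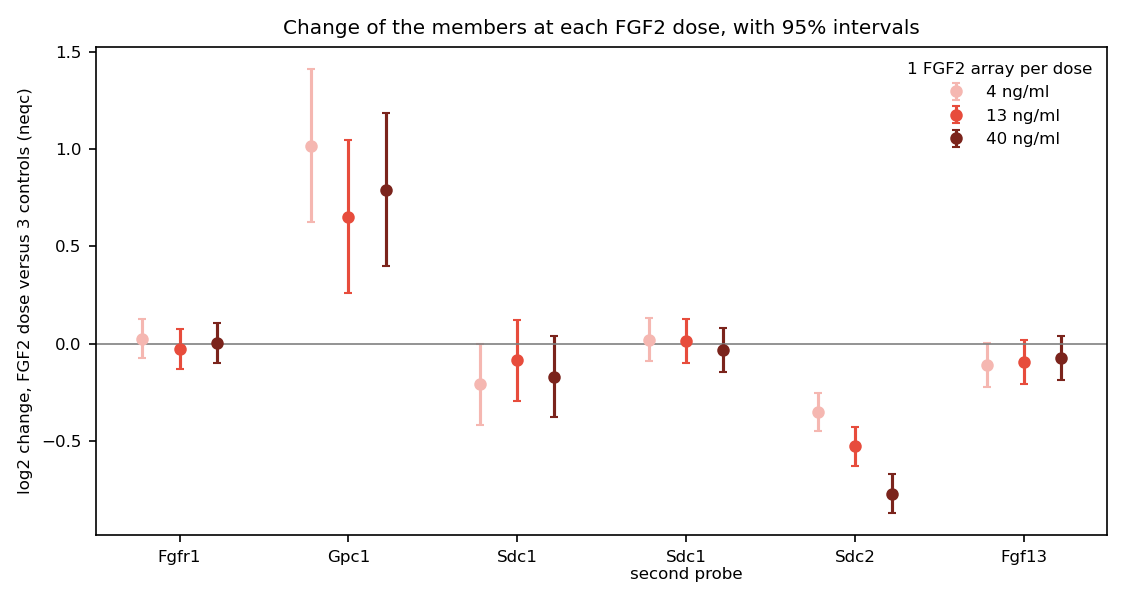
Log2 difference of each dose of FGF2 from the 3 controls (y axis) for the 6 tested probes (x axis), in order of dose from light to dark, with 95% intervals as bars. Gpc1 lies above 0 and Sdc2 below 0 at all 3 doses, and the Sdc2 points go down with dose from -0.35 to -0.77. In raw signal Sdc2 was not lower at 13 ng/ml than at 4 ng/ml.

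A slope per doubling of dose among the 3 FGF2 arrays asked whether these differences moved with dose. Sdc2 had a slope of -0.13 on the log2 scale, with a standard error of 0.013 and a 95% interval of -0.16 to -0.09, and its adjusted p of 0.266 did not pass. Gpc1 had a slope of -0.07 with an adjusted p of 0.749. The slopes of Fgfr1, Sdc1 and Fgf13 were -0.0068, 0.012 and 0.011. Of all tested probes 0% passed this test. The slope rests on 3 FGF2 arrays with no repeat at any dose, and its standard error draws on the controls as well. For Sdc2 the control SD was 0.0011, so the narrow interval of its slope does not measure the spread between cultures at a dose.

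In the authors' deposited table of processed values, the ratio of each dose to the mean of the controls gave log2 values of 1.07, 0.73 and 0.93 for Gpc1 and of -0.27, -0.35 and -0.55 for Sdc2. For Sdc1 the authors' deposited table gave -0.36, -0.06 and -0.24. It gave 0.30 at 4 ng/ml and 0.02 at 40 ng/ml for Fgfr1, with a blank at 13 ng/ml, and Fgf13 was blank at all 3 doses.

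Other proteoglycans that carry heparan sulfate were examined from lists of known genes, chosen with earlier results of these data known. Shares of such lists set against all tested probes are therefore descriptions. Of the 6 glypicans, 3 had a probe and 2 were tested. Gpc6, the only other one tested, fell while Gpc1 rose. The Gpc6 probe had a raw signal of 112.2, 108.0 and 100.1 units at 4, 13 and 40 ng/ml FGF2, against 215.3, 232.7 and 247.4 units in the control replicates. It was undetected with FGF2 at all doses, whereas every control was above the limit, and it was at least 1.12-fold lower with FGF2 (fitted log2 difference -0.26, adjusted p = 0.00165). With robust background estimates the fitted log2 difference of Gpc6 was -2.15.

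Only Sdc1 and Sdc2 of the 4 syndecans had a probe. Of 10 other heparan sulfate proteoglycans 3 were tested, with a median log2 difference of -0.47 against 0.0050 over all tested probes, and 2 fell, against 18.3% of all tested probes. Agrn, which encodes the basement membrane proteoglycan agrin, was 1.66-fold lower, with raw signals of 3114.8, 2702.4 and 2865.5 units at 4, 13 and 40 ng/ml FGF2 and 4039.8, 4373.0 and 4945.4 units in controls (adjusted p = 0.00496). Hspg2, which encodes the matrix proteoglycan perlecan, was 1.39-fold lower (adjusted p = 0.0121). The TGF-beta co-receptor Tgfbr3 had a log2 difference of -0.21 that did not pass (adjusted p = 0.318).

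Proteins that edit heparan sulfate or bind FGF2 outside the cell all went one way among those tested. Of 9 listed genes 4 were tested, 4 fell and 0 rose, with a median log2 difference of -1.12. Of all tested probes 18.3% fell, but this list too was chosen with earlier results known, so the contrast is only a description. Sulf1 and Sulf2 encode the extracellular sulfatases that take sulfate groups off heparan sulfate. Sulf1 had a raw signal of 1041.8, 826.5 and 696.9 units at 4, 13 and 40 ng/ml FGF2, against 1577.0, 1533.1 and 1771.9 units in controls. It was 2.43-fold lower, with a log2 difference of -1.28, a standard error of 0.19 and an adjusted p of 0.00601.

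Sulf2 had 4390.7, 3916.8 and 3471.1 units with FGF2 in the same order, against 6860.5, 7233.2 and 7147.0 units in controls, and was 1.96-fold lower (adjusted p = 0.00198). In raw signal the groups did not overlap for either sulfatase, but in normalised log2 signal 53% of all tested probes did not overlap. Ptx3, which encodes the FGF2-binding pentraxin 3, had a raw signal of 578.7, 160.9 and 126.1 units at 4, 13 and 40 ng/ml, against 3357.0, 3570.6 and 3422.1 units in controls. At 40 ng/ml it was below the detection limit, so its fitted log2 difference of -4.02 (adjusted p = 0.00107) averages 1 undetected array, and over the alternatives it ranged from -4.80 to -3.80. Thbs1, which encodes the FGF2-binding matrix protein thrombospondin 1, had a log2 difference of -0.29 (adjusted p = 0.00124).

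Of 27 listed genes for the enzymes that build heparan sulfate, 12 had a probe and 4 were tested, of which 1 rose, 1 fell and 2 did not pass, against 36.8% of all tested probes that passed in either direction. Ndst1, an N-deacetylase and N-sulfotransferase that starts the sulfation of the chain, had 441.8, 690.5 and 548.1 units at 4, 13 and 40 ng/ml FGF2 and 343.8, 374.6 and 444.5 units in controls. In raw signal the 4 ng/ml array lay within the range of the controls. Ndst1 was 1.40-fold higher after normalisation (adjusted p = 0.0458), and this call ended under 8 of 15 alternatives, which include leaving out control replicate 1, 2 or 3 or the array at 13 or 40 ng/ml, with adjusted p up to 0.140.

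Pxylp1, a phosphatase that acts on the xylose of the linker, had a log2 difference of -0.45 (adjusted p = 0.0282), a call that ended under 6 of 15 alternatives, among them leaving out any control or the array at 13 or 40 ng/ml (adjusted p up to 0.0921). Fam20b, the kinase for the same xylose, had a log2 difference of -0.17 (adjusted p = 0.081), and Extl3, which starts the chain, one of -0.0037 (adjusted p = 0.981). Of the 2 tested genes for sulfate and sugar donors and the 2 for chondroitin sulfate, 0 passed, against 36.8% of all tested probes.

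Among genes whose products cut or shed glypicans and syndecans, Timp3, an inhibitor of sheddases, fell 8.05-fold (adjusted p = 0.000972), and the sheddase Adam17 had a log2 difference of -0.06 (adjusted p = 0.305). Furin, a proprotein convertase, had a log2 difference of 0.16 (adjusted p = 0.0107). Of 12 proteins that bind the tails of syndecans 4 were tested and, against 18.4% of all tested probes that rose, 1 rose. This was Sdcbp, which encodes syntenin, with raw signals of 1090.4, 1309.2 and 1287.4 units at 4, 13 and 40 ng/ml FGF2 and 688.8, 813.8 and 840.2 units in controls. Sdcbp was 1.92-fold higher (log2 difference 0.94, standard error 0.13, adjusted p = 0.00487), whereas Sdc2 was lower.

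Of 14 FGF receptors and protein co-receptors 10 had a probe and 7 were tested, with a median log2 difference of -0.0089. In this list 0 rose and 2 fell, a share that does not exceed the 36.8% of all tested probes that passed. Those that fell were both cell adhesion proteins that can bind FGF receptors, and their log2 differences were -0.28 for Ncam1 (adjusted p = 0.00625, and -1.04 with robust background estimates) and -0.25 for Flrt3 (adjusted p = 0.0190). The Flrt3 call ended without control replicate 1 or 3 or the array at 13 or 40 ng/ml, with adjusted p up to 0.0652. Fgfrl1, a receptor-like protein without a kinase domain, had a log2 difference of 0.05 (adjusted p = 0.298). Probes for Fgfr2 and Fgfr3 did not pass the filter. Of 18 secreted FGFs 7 had a probe and 5 were undetected on all 6 arrays, and the only one tested, Fgf10, differed by -0.04 (adjusted p = 0.454).

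Downstream of the receptor, 12 of 30 listed signalling genes were tested, of which 4 rose, 1 fell and 7 missed the threshold, a share near the 36.8% of all tested probes that passed. Their median log2 difference was 0.02. Pik3r1, the regulatory subunit of phosphoinositide 3-kinase, had 813.1, 762.5 and 701.6 units at 4, 13 and 40 ng/ml FGF2 and 1965.3, 2157.8 and 2120.0 units in controls, and was 3.82-fold lower (adjusted p = 0.000291). Among those that rose, the small GTPase Hras had a log2 difference of 0.23 (adjusted p = 0.00234) and the phosphatase Ptpn11 one of 0.19 (adjusted p = 0.0259). The Hras call ended under 6 of 15 alternatives (adjusted p up to 0.138), none of which left out an array. The Ptpn11 call ended under 7 of 15 (adjusted p up to 0.133), among them leaving out control replicate 2 or 3 or any FGF2 array.

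Of 21 feedback regulators and targets of FGF and ERK signalling 4 were tested and 4 rose, with a median log2 difference of 1.83. Of all tested probes 18.4% rose, but the list was chosen with earlier results of these data known, so the contrast is only a description. The log2 differences were 3.91 for the EGF receptor inhibitor Errfi1, 1.93 for the ETS transcription factor Etv1, 1.73 for cyclin D1 (Ccnd1) and 0.23 for Spred1, an inhibitor of the pathway to ERK. Only 1 of the 3 controls had Spred1 above the detection limit, and its log2 difference was 1.52 with robust background estimates. That of Errfi1 ranged from 3.23 to 4.30 over the alternatives. Of 12 binding partners of Fgf13 4 had a probe and 0 were tested.

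**Figure D4:**
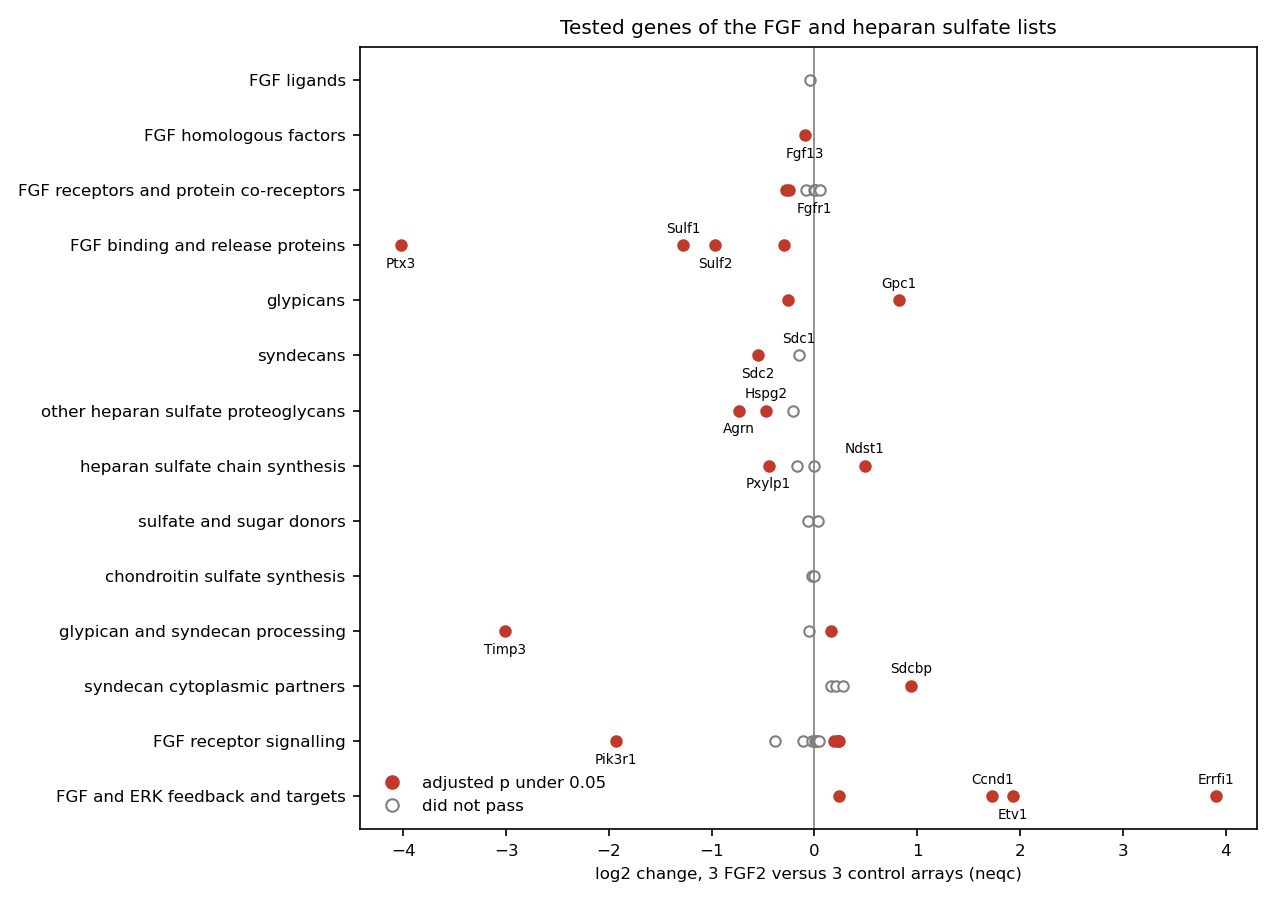
Log2 difference between 3 FGF2 and 3 control arrays (x axis) for each tested gene of 14 lists (y axis), with filled points for an adjusted p under 0.05. Gpc1, Ndst1 and Sdcbp lie right of 0, and Sdc2, Sulf1, Sulf2, Agrn and Hspg2 left of it.

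The genes whose pattern over the 6 arrays was most like that of each of the 5 were found by the root mean square of the difference between log2 deviations from the control means, among 3483 other named genes. For Gpc1 they were Atad3a at 0.084, Heatr1 at 0.102 and Ugt1a6b at 0.103, and only 1 gene came within 0.1. For Sdc2 they were Csk at 0.039, Cav1 at 0.042 and Rab8b at 0.065, with 19 genes within 0.1. The log2 differences of Cav1 were -0.34, -0.59 and -0.82 at 4, 13 and 40 ng/ml, and Csk and Rab8b also fell in that order. These genes were picked for likeness to Sdc2 over the same 6 arrays, so a shared order of doses follows from the choice.

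The patterns of the dim probes were shared by many genes, since 663 genes came within 0.05 of Fgfr1 and 285 within 0.05 of Fgf13. For Sdc1, whose probe was well detected on all 6 arrays, 12 genes came within 0.05 and 477 within 0.1. The nearest were Pigb, Fignl1 and Cox8a to Fgfr1, Ndufa2, Epha4 and Zfp931 to Sdc1, and Phka2, Caskin2 and Cep57l1 to Fgf13. Of these 15 nearest genes, 2 (Heatr1 and Rab8b) were also among the nearest 3 under normexp background correction with an offset of 50.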

How the data were processed

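The signals were measured on 6 arrays, 3 of control cells and 1 at each dose of FGF2. Per the file headers, the authors' array files give a mean signal per probe, an intensity on a linear scale that is not normalised between arrays, with a bead standard deviation. Per the file headers, a deposited detection score, a fraction from 0 to 1, ranks each probe among the negative controls of its array. BeadStudio 1.0 was used, per the submitters' processing notes. The deposited table of processed values is an intensity with low scores left blank, and served only for fold ratios. Other processing steps, the genome build and shared slides or days are not given in the sources used here.

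Signals were corrected with neqc in limma 3.58.1 (R 4.3.3), with an offset of 16, negative controls inferred from the detection scores, and quantile normalisation to log2. The inferred standard deviation of the negative controls was 224 to 263 units. The step from their median to 1 standard deviation up was only 14.2 to 17.6 units. A large inferred standard deviation shrinks differences of dim probes. Probes needed a score of at least 0.99 on at least 3 of 6 arrays. Fgf13, Gpc6 and Postn met this through the controls alone, which favours a difference. Krt18, Egfl7 and Chrna1 met it through the FGF2 arrays alone. Tests used lmFit and eBayes, two-sided, with Benjamini-Hochberg adjustment over all 11763 tested probes. Folds are 2 to the power of the log2 difference. The number of arrays limits the precision.

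Probe names hold no symbols. Their numbers were read as NCBI gene numbers, an inference, and matched to RefSeq annotation of mouse GRCm38.p6, in which 81.1% of 6921 numbers after 1 zero and 84.8% of 4976 after 2 zeros were found. Fgfr1, Sdc2 and the second probes of Sdc1 and Fgf13 have 1 zero, and the other 3 probes have 2. Over 315 genes with a tested probe of each kind the log2 differences correlated at 0.57, and at 0.80 over the 251 with both probes detected on all 6 arrays, as a description across genes. Where a gene had several probes, the brightest tested one stood for it.

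The genes and lists were chosen with earlier results of these data known. Named were every probe of the 5 genes, the 3 genes most like each, and up to 5 genes of each list by absolute log2 difference among those that passed, with relatives of the 5. Tgfbr3, Fam20b, Extl3 and Adam17 did not pass and were named after their values were seen, as were the single markers of other cell types. Some genes of the signalling list are counted but not reported by name here. Genes of a list for which no probe could be named are not analysed here. The choice of alternatives covered background correction, offset, scaling, filter, prior, probe and each array left out.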

Additional observations from a re-analysis of the deposited data

How the results depend on the processing

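Gpc1 and Sdc2 kept their direction and passed under all 15 alternatives for FGF2 against control, with adjusted p of 0.000198 to 0.0249 and 0.00285 to 0.0445. Fgfr1 passed under 0 of 14. Sdc1 passed only with scaling to a common median (log2 difference -0.20). Fgf13 passed under 8 of 14, and leaving out 1 array gave -0.10 to -0.080 with no call. The bounds on Fgf13 under other background corrections were chosen after seeing the data, and with normexp at an offset of 16 its log2 difference was -0.77. For FGF2 against control, the largest move of a fold of the other 4 genes was 1.11 times. Flrt2, at 0.0032 on the log2 scale (adjusted p = 0.992), changed sign and passed without the array at 4 ng/ml, at -0.20 (adjusted p = 0.0468), in a range of -0.20 to 0.11 with 1 array left out; the cause was not tested. With 1 array left out, 1258 to 2519 probes were higher and 1337 to 2379 lower, against 2168 and 2157 with all 6; the fewest came without the array at 40 ng/ml, and higher probes also numbered 1436 without the array at 13 ng/ml and 1341 without control replicate 1. Scaling to a common median made 37.9% of the called probes higher, against 50.1%. No paired analysis was possible because each dose has 1 array and shares at most 1 replicate number with the controls. Probes near the detection limit, Fgfr1 and Fgf13 among them, allow no firm size of a difference, and a test of 1 array per dose leaves out the spread between cultures at that dose.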
